A study of Homo sapiens with 11 samples.

Results

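The 39 genes described here are those of the NRF2 response, of glutathione and thioredoxin metabolism, and of the NADPH supply that both draw on. They were taken by symbol from a listed set, and all 39 were found among the 33080 genes of the deposited tables. The data are RNA sequencing of 769-P, an established human line from a clear-cell renal carcinoma, and comprise 11 libraries. In 4 libraries the cells had received a control siRNA (siSCR, genotype labelled wild-type), in 3 a first siRNA against AKR1A1 (si1) and in 4 a second one (si2). The cells of all groups were transfected for 48 h with RNAiMAX, a lipid reagent, with the siRNA labelled at 20 µM. The labels give both siRNA groups the genotype AKR1A1-/-, although the protocol describes siRNA and no edited line. AKR1A1, an NADPH-dependent aldehyde reductase, is the targeted gene. The labels do not say whether the replicates were separate cultures, so p-values speak of the spread among these libraries alone, which may be technical.

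NRF2, encoded by NFE2L2, is a transcription factor that KEAP1 holds in the cytoplasm and passes to degradation until oxidants or electrophiles modify KEAP1. Released NRF2 pairs with a small MAF protein in the nucleus and switches on genes for glutathione synthesis, thioredoxin reduction, detoxification and NADPH production. Glutathione and thioredoxin are the main thiol reductants of the cell, and both are regenerated with NADPH, much of it from the pentose phosphate pathway. In the kidney these systems are known for handling filtered and metabolic oxidants, and NRF2 is known to be activated in some renal carcinomas.

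Levels below are normalized counts, that is, reads per gene after the authors' scaling for library depth, with 1 value per library. AKR1A1 stood at 390.4, 256, 200.1 and 242 in siSCR 1 to 4, at 81.7, 23.6 and 45.1 in si1 1 to 3, and at 56.6, 32.1, 48.3 and 46.1 in si2 1 to 4. All siRNA libraries lay below all control libraries, and AKR1A1 was still read in each of them. It fell by 2.54 on the log2 scale with si1 (SE 0.42, limma adjusted p = 0.0357) and by 2.53 with si2 (SE 0.24, limma adjusted p = 0.00218), and a fit with the replicate number as a block left the si1 value uncalled (adjusted p = 0.154). Leaving out any library but siSCR 1 did so too (limma adjusted p 0.0659 to 0.126), while AKR1A1 with si2 was called without each library in turn. In the blocked fit siSCR 4 has no si1 library of its number, so it adds nothing to the si1 value.

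Library depth ran from 2108546 to 5939514 reads. Of 12 renal markers, 9 had a mean normalized count of at least 10, while CA9, a defining marker of clear-cell carcinoma, was at 0 in all libraries. No leukocyte marker of 7 and no endothelial marker of 6 reached that level, and of 7 fibroblast markers only COL1A1 did. Library siSCR 1 stood apart from the other controls. Mitochondrially encoded genes took 12.1% of its reads against 3.46% to 4.46% in siSCR 2 to 4, 6.57% to 11.1% in si1 and 4.59% to 5.12% in si2. Library si1 2 stood apart too, and held 11618 genes with a read, against at least 13154 in each other library. Over genes, it correlated with the other si1 libraries at 0.889 to 0.902, and siSCR 1 with the other controls at 0.915 to 0.931. Without si1 2, 0 members and 4 genes in all were called with si1. Because siSCR 1 stood apart, the counts of members against siSCR are also given without it.

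Most of the genes did not pass the test with either siRNA, and their differences lay on both sides of 0. With si1, 3 of the 36 members that could be tested fell and none rose: GCLM, the modifier subunit of glutamate-cysteine ligase, PIR, an iron-binding nuclear protein, and TKT, the transketolase of the pentose phosphate pathway. With si2, limma called none of the 36 in either direction. In the direct comparison of both siRNAs, GCLM, PIR and TKT were again the called members, all higher with si2. TXNRD1, the cytosolic thioredoxin reductase, had the lowest member value with si2, and it passed the test only under some settings.

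A gene was called at a limma adjusted p under 0.05, with the adjustment over all tested genes, and a gene was tested if it reached a normalized count of 10 in at least the number of libraries that make up the smaller group. GPX2, GSTP1 and PRDX2 missed this minimum. With si1, the 3 members that fell are 8.33% of the 36, beside 0.932% of all 10517 tested genes that fell and 0.789% that rose. The list was chosen with earlier results of these data known, so these shares were not tested against each other. They also moved with the setting. With limma-trend 3 members fell beside 370 of 10517 genes, and in 1 fit of all libraries 3 fell beside 570 of 10760. With si2, the background was 1.93% of 10249 genes higher and 1.19% lower. An unadjusted p under 0.05 was reached by 8 of the 36 members (22.2%), beside 2008 of all genes (19.6%). With limma-trend, voom or a minimum of 50, TXNRD1 alone was called with si2, 1 of 36, 36 and 31 members. Of all genes, 482 of 10249, 463 of 10249 and 417 of 6982 were called under these settings. With the mitochondrial share as a term, 5 of the 36 members were called, 3 higher and 2 lower, beside 1343 of all 10249 genes, a similar share. For si2 against si1, 3 members were called higher and 0 lower, beside 3.71% and 3.02% of 10448 genes. The median log2 fold change of the 36 members was 0.12 with si1, 0.11 with si2 and 0.05 for si2 against si1, beside -0.03, -0.01 and 0.03 over all tested genes. Both siRNAs were compared with the same 4 control libraries, so those comparisons share their control values.

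**Figure D1:**
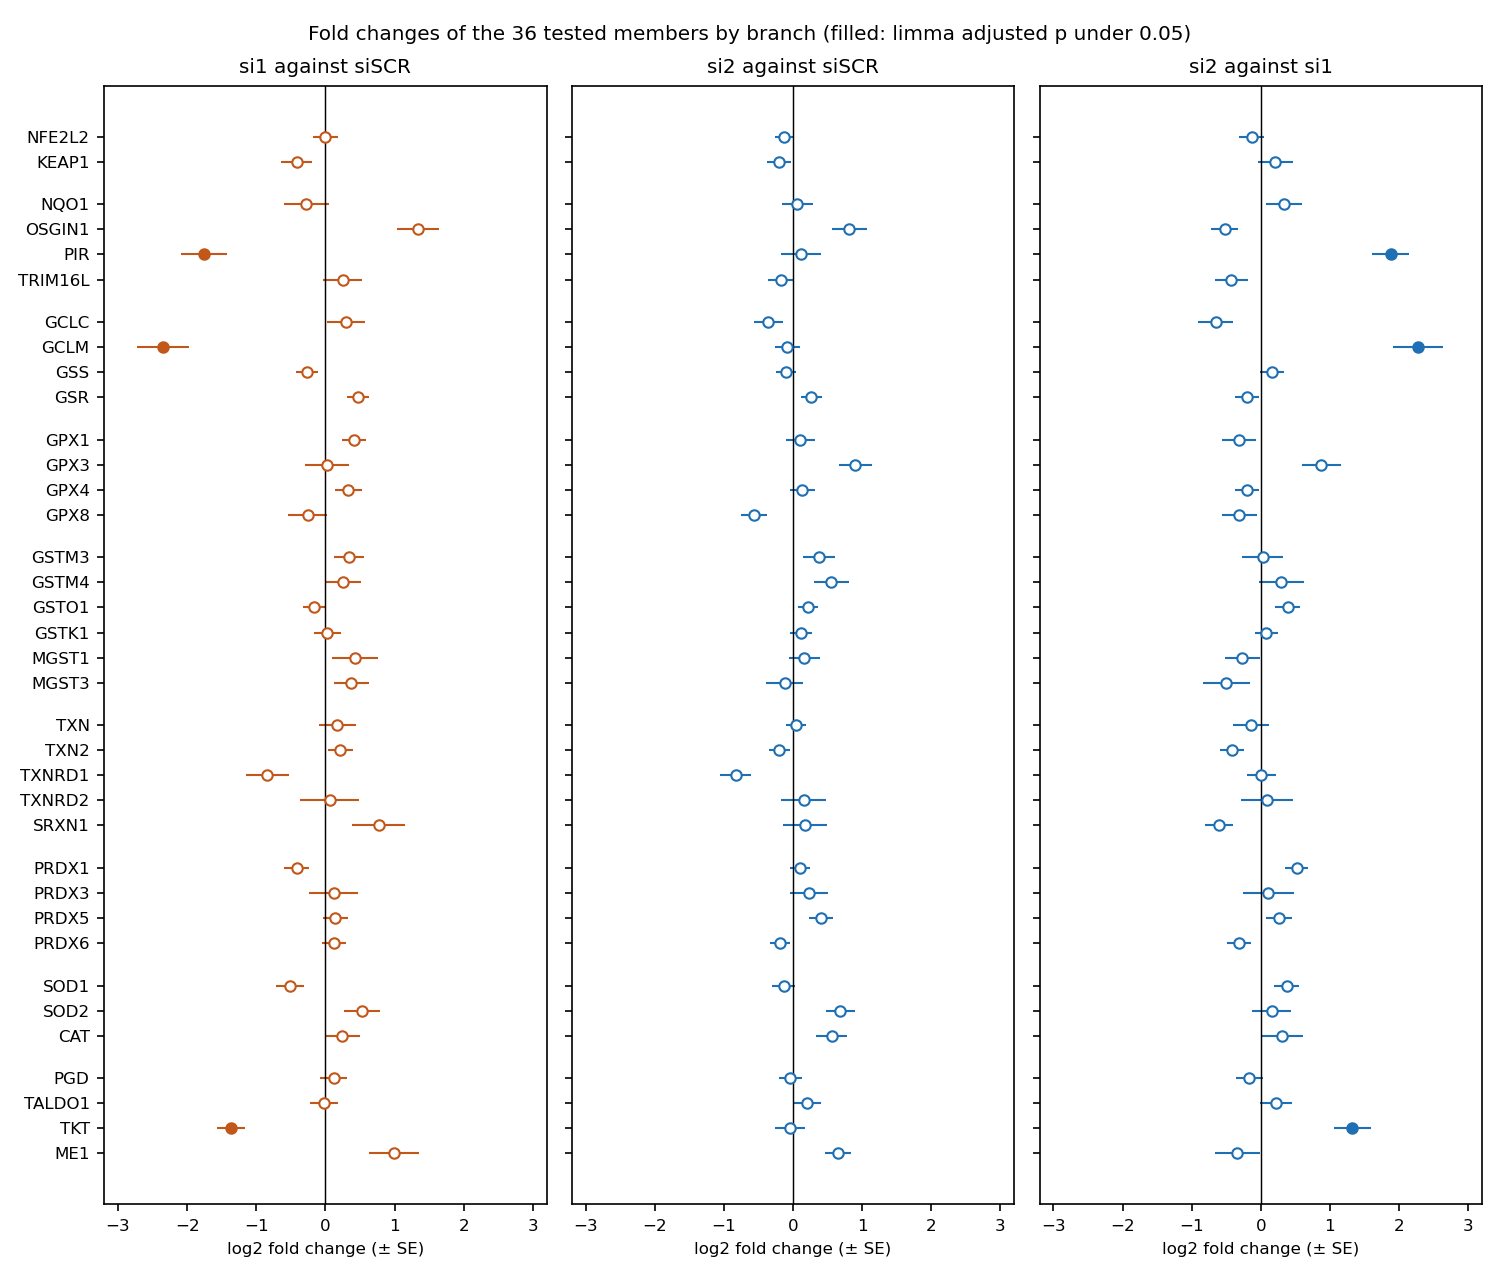
Log2 fold change (x axis, ± SE) of the 36 tested members (y axis, grouped by branch) for each siRNA against siSCR (left and middle) and for si2 against si1 (right), with filled points for a limma adjusted p under 0.05. GCLM, PIR and TKT are filled at -2.35, -1.76 and -1.37 with si1 and at 2.27, 1.88 and 1.33 for si2 against si1, and no point is filled for si2 against siSCR.

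Without siSCR 1, 1 member rose with si1 (OSGIN1) and 4 fell (GCLM, PIR, TKT and TXNRD1), with a background of 7.01% of all tested genes higher and 6.52% lower. With si2, 3 members then rose (OSGIN1, SOD2 and ME1) and 2 fell (TXNRD1 and GPX8), with a background of 7.74% higher and 6.68% lower. These shares of members are 2.78% and 11.1% with si1, and 8.33% and 5.56% with si2. With si1, members called thus went from 3 to 5 while all genes called went from 181 to 1399. With si2, members went from 0 to 5 and all genes from 320 to 1496. Leaving out any other library of the si1 comparison left 0 members called, and in that fit 0 to 4 genes were called in all. For the si2 comparison, leaving out any library but siSCR 1 also left 0 members called, with 88 to 160 genes called in all.

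A window around a start site of each of the 3 called members and of TXNRD1 is shown because NRF2 with a small MAF protein is known to bind a short element in the promoters of its targets. Each window runs from 250 bases before to 50 bases after the start in the sense of the gene, from RefSeq on GRCh38.p14, with matches to TGACNNNGC on either strand in capitals. The windows are chr1:93909381-93909680 (minus strand) for GCLM, chrX:15493284-15493583 (minus) for PIR, chr3:53255973-53256272 (minus) for TKT and chr12:104215529-104215828 (plus) for TXNRD1.
GCLM: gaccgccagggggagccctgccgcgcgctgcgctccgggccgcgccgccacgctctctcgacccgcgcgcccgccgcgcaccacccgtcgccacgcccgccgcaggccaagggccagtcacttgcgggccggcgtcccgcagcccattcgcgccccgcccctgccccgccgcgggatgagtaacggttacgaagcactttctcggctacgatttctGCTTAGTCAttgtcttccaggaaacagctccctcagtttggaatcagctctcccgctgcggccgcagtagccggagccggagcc
PIR: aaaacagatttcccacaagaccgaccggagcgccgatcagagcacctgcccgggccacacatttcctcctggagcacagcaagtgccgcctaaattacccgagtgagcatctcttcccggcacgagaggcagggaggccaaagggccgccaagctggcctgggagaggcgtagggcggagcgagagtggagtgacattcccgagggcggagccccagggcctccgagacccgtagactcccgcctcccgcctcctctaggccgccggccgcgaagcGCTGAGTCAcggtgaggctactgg
TKT: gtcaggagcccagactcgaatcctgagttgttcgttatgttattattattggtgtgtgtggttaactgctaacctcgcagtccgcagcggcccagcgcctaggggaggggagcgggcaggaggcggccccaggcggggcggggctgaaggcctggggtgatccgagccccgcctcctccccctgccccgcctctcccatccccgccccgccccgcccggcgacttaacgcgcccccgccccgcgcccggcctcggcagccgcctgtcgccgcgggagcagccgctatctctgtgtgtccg
TXNRD1: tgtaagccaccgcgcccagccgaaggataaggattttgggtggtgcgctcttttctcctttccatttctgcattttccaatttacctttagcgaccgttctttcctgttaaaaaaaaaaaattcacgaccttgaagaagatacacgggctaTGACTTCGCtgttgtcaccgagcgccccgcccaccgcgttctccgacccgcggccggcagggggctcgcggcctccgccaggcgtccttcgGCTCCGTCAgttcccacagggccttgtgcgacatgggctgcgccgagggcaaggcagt

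GCLM had 1 match, TGACTAAGC on the reverse strand, which began 34 bases before the start. PIR had 1, TGACTCAGC on the reverse strand, beginning at base 27 of the transcript, and TXNRD1 had TGACTTCGC and, on the reverse strand, TGACGGAGC, which began 99 and 8 bases before the start. A further TXNRD1 start in the table, with the window chr12:104286782-104287081, had TGACAAAGC on the reverse strand, beginning 102 bases before that start. The TKT window held no match, which says only that these letters are not in this window. Of 32 members with a window, tested or not, 10 held a match in at least 1 window (31.2%). These were GCLM, GPX2, GSTO1, GSTP1, KEAP1, ME1, MGST1, PGD, PIR and TXNRD1, of which GPX2 and GSTP1 were not tested. The share was 16.1% over all genes with a window, tested or not (4384 of 27305), and 19.9% over tested genes (1621 of 8130). Some genes had more than 1 window. Counted by window, 11 of 45 member windows held a match (24.4%), beside 4687 of all 35116 windows (13.3%). The match is a description of the letters and not a measured binding site. Of the 3 called members, GCLM and PIR held it and TKT did not.

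The regulators themselves did not pass the test with either siRNA. NFE2L2 stood at 479, 460.4, 487 and 483 in siSCR, at 572, 399.6 and 472 in si1, and at 461, 429, 421 and 427 in si2. The groups overlapped, and the control libraries lay within a narrow band that the si1 libraries straddled. On the log2 scale the difference was -0.00 with si1 (95% interval -0.43 to 0.42) and -0.13 with si2 (-0.43 to 0.16). Other annotated genes, the main one on the same strand, share 20.9% of its exon bases, so the counting could have affected NFE2L2. KEAP1, its inhibitor, ranged from 216 to 261 (siSCR), 132 to 232 (si1) and 159 to 250 (si2), with log2 differences of -0.41 (SE 0.22, limma adjusted p = 0.291) and -0.20 (SE 0.18, limma adjusted p = 0.581). The deposited levels are of mRNA, so they hold no measure of NRF2 protein, whose stability KEAP1 is known to set.

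Among the further NRF2 targets, PIR fell with si1 and overlapped the controls with si2. PIR stood at 36.9, 80.1, 85.0 and 68.2 in siSCR, at 18.4, 13.9 and 24.0 in si1, and at 57.5, 61.0, 105 and 65.3 in si2. All si1 libraries lay below all others, siSCR 1 was the lowest control, and siSCR and si2 overlapped. PIR fell by 1.76 on the log2 scale with si1 (SE 0.33, limma adjusted p = 0.0488), from a mean of 67.6 ± 21.6 (SD, n = 4) to 18.8 ± 5.1 (SD, n = 3). With si2 the log2 difference was 0.12 (95% interval -0.53 to 0.76, limma adjusted p = 0.866), and si2 lay 1.88 above si1 (SE 0.27, limma adjusted p = 0.0119). Without siSCR 1 the si1 value was -2.02 (limma adjusted p = 0.00951), without any other library its adjusted p was 0.0987 to 0.149, and with the replicate block it was 0.154. It was also above 0.05 with a pseudocount of 0.5 (0.0532), with voom (0.0522), with the mitochondrial share as a term (0.0521) and without a filter on low values (0.108).

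OSGIN1, a growth inhibitor induced by oxidative stress, was low throughout and higher in all siRNA libraries than in all controls. It stood at 12.6, 5.34, 11.8 and 7.13 in siSCR, at 26.3, 19.4 and 25.5 in si1, and at 18.6, 16.9, 14.7 and 14.5 in si2. Neither comparison passed the test, with log2 differences of 1.34 for si1 (SE 0.31, limma adjusted p = 0.0653) and 0.81 for si2 (SE 0.25, limma adjusted p = 0.112). Without siSCR 1 it rose with both, by 1.50 (limma adjusted p = 0.0250) and 0.97 (limma adjusted p = 0.0273). Leaving out any other library left OSGIN1 uncalled with both siRNAs (limma adjusted p 0.101 to 0.183 with si1). Annotated exons of another gene on the same strand share 13.9% of its exon bases, so the counting could have affected it. OSGIN1, TXNRD1, NQO1, GSR, GPX3, GPX8, SOD2, ME1 and GSTP1 were chosen for a closer description after their values were seen.

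NQO1, a quinone reductase and a widely used reporter of NRF2 activity, did not pass the test with either siRNA. It stood at 574, 1063, 1108 and 1043 in siSCR, at 499.7, 910.3 and 956 in si1, and at 824, 952, 1073 and 999 in si2. Replicate 1 was the lowest library in each group, and all groups overlapped. Its log2 difference was -0.27 with si1 (SE 0.33, limma adjusted p = 0.632) and 0.06 with si2 (SE 0.23, limma adjusted p = 0.910). Other annotated genes, the main one on the opposite strand, share 17.7% of the NQO1 exon bases. TRIM16L, a TRIM-family relative of TRIM16, ranged from 115 to 169.9 (siSCR), 114 to 211 (si1) and 110.3 to 138 (si2), with log2 differences of 0.25 and -0.17 that did not pass the test.

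**Figure D2:**
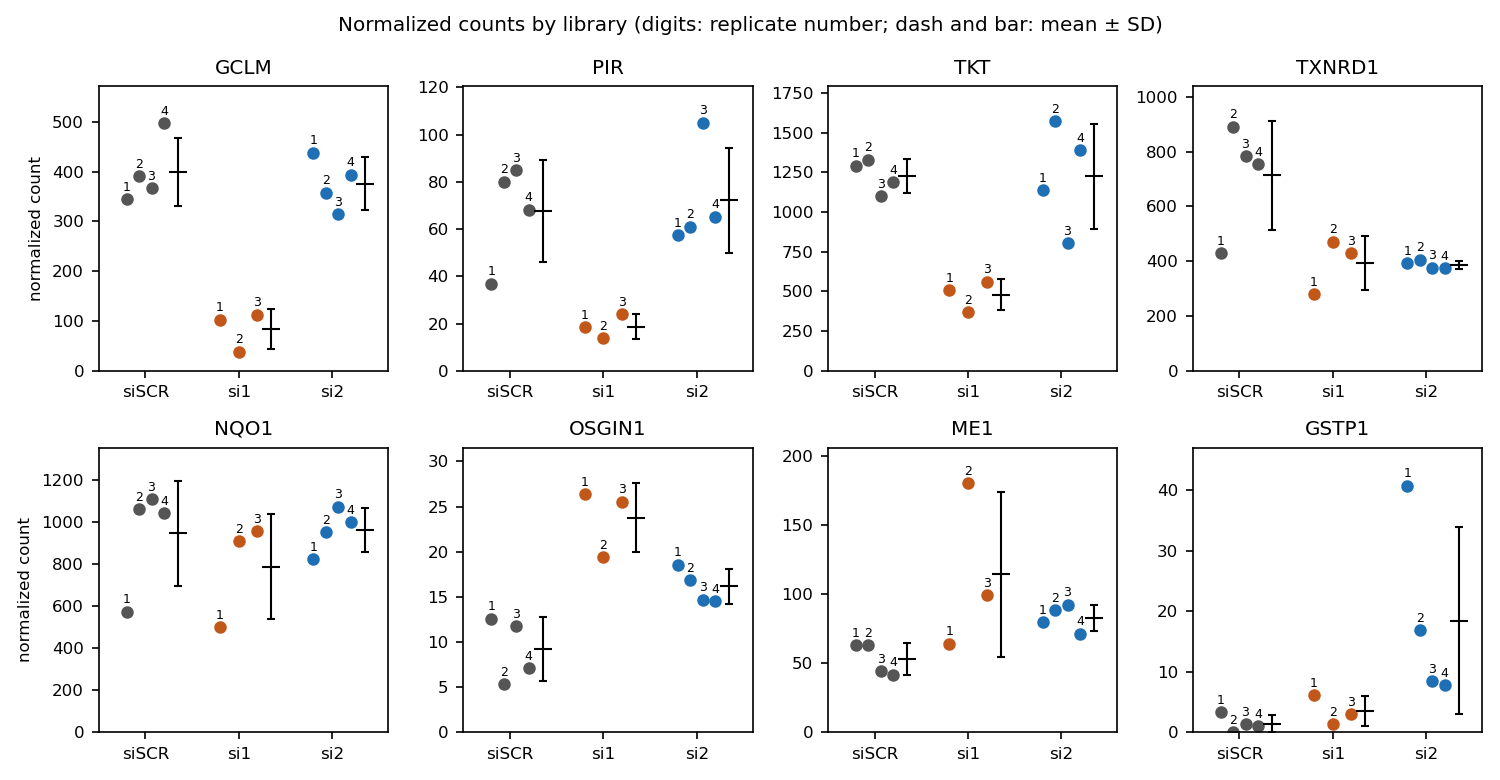
Normalized count of 8 members in each library (y axis, linear, from 0) for siSCR, si1 and si2 (x axis), with the replicate number over each point and the mean ± SD beside each group. The si1 libraries of GCLM lie between 38.9 and 113, below all others, and siSCR 1 lies apart from the other controls for NQO1 (574) and TXNRD1 (429).

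Of the 4 genes of glutathione synthesis and recycling, GCLM alone passed the test. GCLM stood at 344, 391, 366 and 497 in siSCR, at 103, 38.9 and 113 in si1, and at 438, 358, 315 and 394 in si2. Every si1 library lay below every other library, and siSCR and si2 overlapped. GCLM fell by 2.35 on the log2 scale with si1 (SE 0.37, limma adjusted p = 0.0341), from a mean of 399.6 ± 67.7 (SD, n = 4) to 84.8 ± 40.1 (SD, n = 3), and si2 lay 2.27 above si1 (SE 0.36, limma adjusted p = 0.0156). With si2 against siSCR the log2 difference was -0.08 (95% interval -0.47 to 0.31, limma adjusted p = 0.845). In a bulk sample, fewer cells with the RNA and less RNA per cell cannot be told apart, here as for the genes below. GCLM lies at chr1:93885205-93909456 on the minus strand (GENCODE 29, GRCh38), and no other annotated gene shares its exons.

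The GCLM difference with si1 stayed below 0 over the settings tried. Its size shifted with the library left out, and its call did not hold under all settings. Without siSCR 1 it was -2.42 (limma adjusted p = 0.0185). Without any other library the log2 value lay between -2.62 (without si1 3) and -1.87 (without si1 2). The limma adjusted p was then between 0.0629 and 0.126. It was 0.0856 without a filter on low values and 0.154 with the replicate block. In the authors' deposited table the log2 fold change of GCLM with si1 was -1.99 with an adjusted p of 7.63e-10.

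The catalytic partner GCLC, which carries the active site of the same ligase, ranged from 46.8 to 79.1 (siSCR), 52.6 to 97.1 (si1) and 36.8 to 59.1 (si2). Its log2 difference was 0.30 with si1 (95% interval -0.33 to 0.92) and -0.36 with si2 (-0.82 to 0.11), so neither passed the test. GSS, which adds glycine in the last step, ranged from 159 to 178 in siSCR and 132 to 149 in si1 with no overlap, a log2 difference of -0.27 (SE 0.16, limma adjusted p = 0.329), and stood at -0.10 with si2. GSR, which reduces oxidised glutathione with NADPH, stood at 948, 797, 831 and 853 in siSCR, at 1131, 1200.3 and 1220.2 in si1, and at 1170.1, 1086, 946 and 931 in si2. The si1 libraries lay above all controls and the si2 libraries did not. Its log2 difference with si1 was 0.47 (SE 0.16, limma adjusted p = 0.142), and the authors' deposited table gave 0.45 with an adjusted p of 0.0304.

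The glutathione peroxidases, which spend glutathione on peroxides, held no called member. GPX4, the enzyme that removes lipid peroxides and guards against ferroptosis, stood at 850.4, 582, 594 and 722 in siSCR, at 879, 867 and 817 in si1, and at 672, 803, 661 and 867 in si2. The si2 libraries overlapped both other groups, while si1 overlapped siSCR only through siSCR 1, whose GPX4 level was 1.34 times the mean of the other controls. The log2 differences were 0.33 with si1 (SE 0.20, limma adjusted p = 0.330) and 0.14 with si2 (SE 0.18, limma adjusted p = 0.743). GPX1, the abundant cytosolic form, stood at 463 to 544 in si1 above all controls at 344 to 435 (log2 0.42, SE 0.17, limma adjusted p = 0.193) and at 314 to 612 in si2.

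GPX3, the secreted form, stood at 12.6, 22.4, 20.9 and 13.2 in siSCR, at 26.3, 13.9 and 13.5 in si1, and at 37.1, 27.3, 26.3 and 39.9 in si2. The si2 libraries lay above all controls, and si1 overlapped them. The log2 difference with si2 was 0.90 (SE 0.24, limma adjusted p = 0.0707). GPX8, of the endoplasmic reticulum, stood at 117 to 182 (siSCR), 90.4 to 179 (si1) and 84.3 to 119 (si2), a log2 difference of -0.56 with si2 (SE 0.19, limma adjusted p = 0.140) that was -0.69 without siSCR 1 (limma adjusted p = 0.0291). Leaving out any other library left GPX8 uncalled with si2. GPX2, the intestinal form, had 0 of 36266558 reads over all libraries, which allows no more than 3 reads over all libraries together, for counting error only.

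Of the glutathione S-transferases, which couple glutathione to electrophiles, none of the 6 tested was called. MGST3, a membrane-bound member, stood at 524, 654, 756 and 576 in siSCR, at 573, 1000.5 and 917 in si1, and at 429.8, 414, 976 and 611 in si2. The si2 libraries spanned the widest range of the groups, and all groups overlapped. The log2 difference was 0.38 with si1 (SE 0.25, limma adjusted p = 0.382) and -0.12 with si2 (SE 0.27, limma adjusted p = 0.851). MGST1, the other membrane form, ranged from 205 to 412 (siSCR), 284 to 559 (si1) and 321 to 372 (si2).

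GSTO1, of the omega class, was in si1 (466 to 551) below and in si2 (599 to 771) above all controls (559 to 593), with log2 differences of -0.17 (SE 0.16, limma adjusted p = 0.534) and 0.22 (SE 0.15, limma adjusted p = 0.455). For si2 against si1 it was 0.39 (SE 0.18, limma adjusted p = 0.216). The mu-class GSTM3 and GSTM4 and the kappa-class GSTK1 overlapped in all comparisons. Their log2 differences were 0.35, 0.26 and 0.03 with si1 and 0.37, 0.55 and 0.11 with si2. GSTM3 has 2 named pseudogenes, so reads could have been split.

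GSTP1, the pi-class transferase, was nearly silent in the controls. It had 4, 0, 1 and 1 reads in siSCR, 7, 1 and 2 in si1, and 46, 21, 8 and 15 in si2. All si2 libraries held more reads than any other library, and si2 3 and si1 1, at 8 and 7 reads, came closest. In normalized counts the si2 libraries held 40.7, 16.9, 8.40 and 7.77 and the rest at most 6.15. With no filter on low values, the log2 difference with si2 was 2.89 (SE 0.58, limma adjusted p = 0.0702), and the authors' deposited table gave 1.28 with an adjusted p of 0.00165.

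In the thioredoxin system, TXNRD1 had the lowest log2 value with both siRNAs, and thioredoxin itself passed the test with neither. TXNRD1, which reduces cytosolic thioredoxin with NADPH, stood at 429, 891, 782 and 754 in siSCR, at 281, 472 and 428 in si1, and at 392, 405, 376 and 375 in si2. The si2 libraries lay close together and below all controls. Control siSCR 1, at 0.53 times the mean of the other controls, overlapped si1. On the log2 scale the difference was -0.84 with si1 (SE 0.31, limma adjusted p = 0.159) and -0.83 with si2 (SE 0.22, limma adjusted p = 0.0768), and si2 and si1 differed by 0.01 (95% interval -0.48 to 0.50).

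Without siSCR 1, TXNRD1 fell with both, by 1.07 (limma adjusted p = 0.0345) and by 1.06 (limma adjusted p = 0.00271). With all libraries it was also called with si2 under a minimum of 50 (limma adjusted p = 0.0412), limma-trend (0.0284), voom (0.0316) and the mitochondrial share as a term (0.00398). Without any other library the adjusted p with si2 was 0.152 to 0.197. The authors' deposited table gave -0.79 for each, with adjusted p-values of 0.0337 and 0.00165. TXNRD1 lies at chr12:104215779-104350305 on the plus strand (GENCODE 29, GRCh38).

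**Figure D3:**
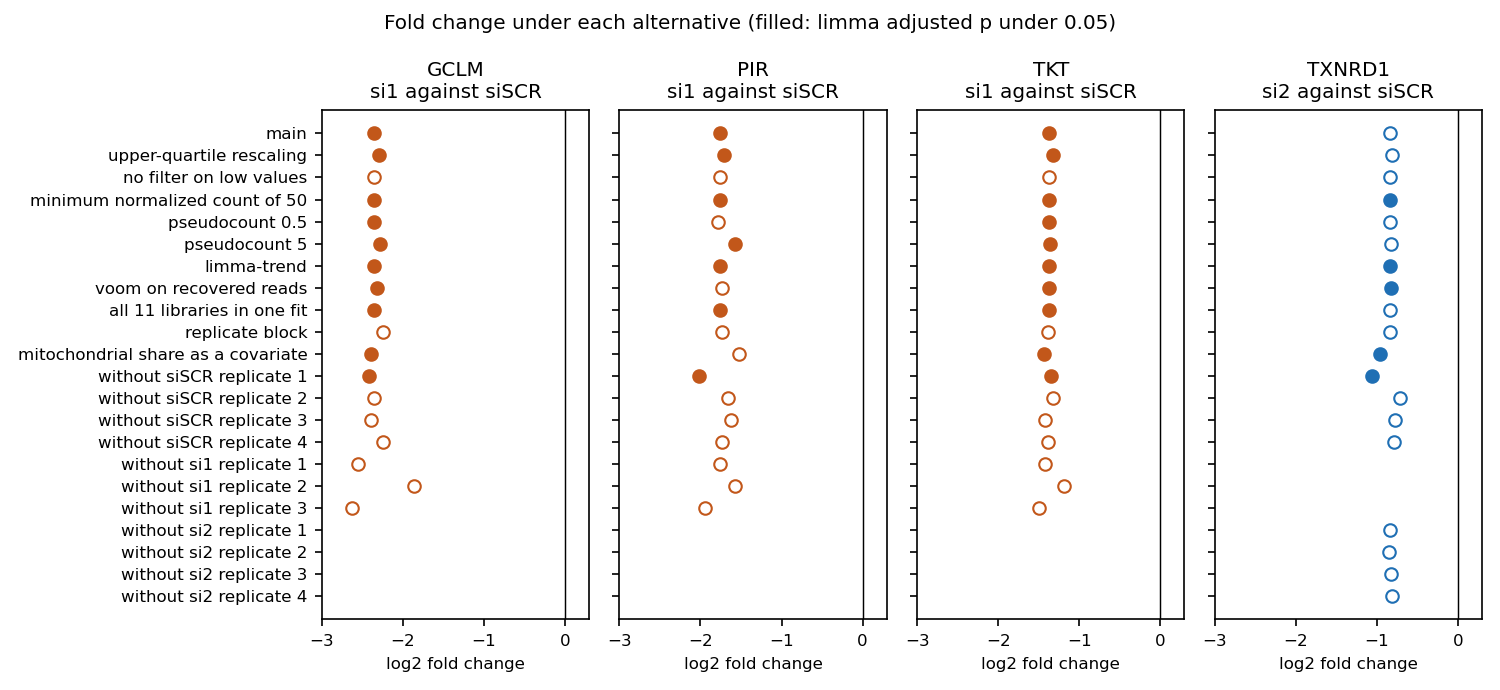
Log2 fold change (x axis) of GCLM, PIR and TKT with si1 and of TXNRD1 with si2 under each setting tried (y axis), with filled points for a limma adjusted p under 0.05. All points lie left of 0. For GCLM, PIR and TKT, siSCR 1 is the only library whose removal leaves the point filled.

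TXN, cytosolic thioredoxin, stood at 634, 762, 691 and 687 in siSCR, at 512, 1074 and 866 in si1, and at 754, 717, 626 and 748 in si2. The groups overlapped, with the widest range in si1. Its log2 difference was 0.17 with si1 (SE 0.27, limma adjusted p = 0.713) and 0.04 with si2 (95% interval -0.29 to 0.36). TXN has 7 named pseudogenes, so some of its reads may have been assigned to copies or dropped.

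Mitochondrial thioredoxin TXN2 ranged from 419 to 534 (siSCR), 487 to 586 (si1) and 382 to 451 (si2), and its si2 libraries lay below its si1 libraries (log2 -0.42, SE 0.17, limma adjusted p = 0.169). Its reductase TXNRD2 was low, at 12.6 to 35.6 (siSCR), 14.1 to 36.1 (si1) and 18.9 to 42.5 (si2). SRXN1, sulfiredoxin, which rescues over-oxidised peroxiredoxins, stood at 17.1 to 45.8 (siSCR), 41.6 to 55.6 (si1) and 27.3 to 39.4 (si2). Its log2 difference with si1 was 0.77 (SE 0.38, limma adjusted p = 0.256). Another gene on its strand shares 85.0% of its exon bases, so its value is uncertain.

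The peroxiredoxins, which use thioredoxin to reduce hydrogen peroxide, included the member with the highest level. PRDX1 stood at 4589.6, 5437, 5432 and 5934 in siSCR, at 4325, 3568 and 4124 in si1, and at 5679, 5536, 5434 and 6279.5 in si2. All si1 libraries lay below all libraries of the other groups, which overlapped each other. The log2 difference was -0.42 with si1 (SE 0.18, limma adjusted p = 0.206), 0.10 with si2 (SE 0.15, limma adjusted p = 0.759) and 0.52 for si2 against si1 (SE 0.17, limma adjusted p = 0.0995). For the latter, limma-trend (0.0466) and voom (0.0339) brought the adjusted p under 0.05. MMACHC, on the opposite strand, shares 24.9% of the PRDX1 exon bases, and the strandedness of the counts was not given in the sources used here.

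PRDX3, the mitochondrial form, ranged from 133 to 241 (siSCR), 128 to 308 (si1) and 151 to 339 (si2), with replicate 1 lowest in each group. PRDX5 stood at 696 to 962 (siSCR), 824 to 983 (si1) and 892 to 1305 (si2), a log2 difference of 0.41 with si2 (SE 0.18, limma adjusted p = 0.241). PRDX6 ranged from 762 to 948 in siSCR and 827 to 1052 in si1, and the si2 libraries, at 707 to 789, lay below all si1 libraries (log2 -0.31, SE 0.17, limma adjusted p = 0.287). PRDX2 had 1 read in all, in si2 1. It has 4 named pseudogenes, and a gene on the opposite strand shares 14.1% of its exon bases, so its count is uncertain.

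Per kilobase of annotated exon in siSCR, PRDX1 was highest at 3514, followed by PRDX5 at 927, SOD1 at 835, TXN at 607 and TALDO1 at 398. The length used merges the exons of all annotated transcripts of a gene, for example 1522 bases for PRDX1 and 9507 for TKT. The order therefore depends on the annotation as well as on the reads. On this per-length scale the siSCR libraries of PRDX5 and SOD1 overlapped, as did those of SOD1 and TXN. OSGIN1, at 2.66, TXNRD2, at 3.10, and GPX3, at 5.47, were the lowest of the members tested. Summed, the 39 members took 0.565% to 0.705% of the reads in siSCR, with siSCR 1 lowest, 0.501% to 0.604% in si1 and 0.652% to 0.722% in si2. PRDX1 alone took 0.143% to 0.196%, 0.117% to 0.130% and 0.175% to 0.204%, so the sums lean on this gene. The total reads include those of mitochondrially encoded genes, whose share differed between libraries.

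Neither superoxide dismutase passed the test, nor did catalase. SOD1, the cytosolic copper and zinc enzyme, stood at 1322, 1833, 1725 and 1862 in siSCR, at 1008, 1234 and 1295 in si1, and at 1547, 1438, 1392 and 1736 in si2. The si1 libraries lay below all others, and siSCR 1 came nearest to them. On the log2 scale the difference was -0.51 with si1 (SE 0.20, limma adjusted p = 0.179) and -0.13 with si2 (SE 0.17, limma adjusted p = 0.721). SOD1 has 3 named pseudogenes.

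SOD2, the mitochondrial manganese enzyme, stood at 109, 84.4, 102 and 76.4 in siSCR, at 113, 191 and 108 in si1, and at 131, 124, 212 and 142 in si2. All si2 libraries lay above all controls, and si1 3 lay just below siSCR 1. Its log2 difference was 0.53 with si1 (SE 0.26, limma adjusted p = 0.254) and 0.68 with si2 (SE 0.21, limma adjusted p = 0.110), and without siSCR 1 it rose with si2 by 0.76 (limma adjusted p = 0.0450). Leaving out any other library left SOD2 uncalled with si2. CAT, which breaks down hydrogen peroxide in peroxisomes, ranged from 47.0 to 70.5 (siSCR), 51.3 to 96.2 (si1) and 68.1 to 131 (si2), with a log2 difference of 0.56 with si2 (SE 0.23, limma adjusted p = 0.208).

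In the pentose phosphate pathway, TKT fell with si1, and TALDO1, its partner in the non-oxidative steps, did not pass the test. TKT stood at 1291, 1330.0, 1099 and 1186 in siSCR, at 509, 370.5 and 562 in si1, and at 1137, 1571, 804 and 1389 in si2. All si1 libraries lay below all others, and siSCR lay within the wider range of si2. TKT fell by 1.37 on the log2 scale with si1 (SE 0.20, limma adjusted p = 0.0318), from 1227 ± 105 (SD, n = 4) to 481 ± 98.9 (SD, n = 3), and si2 lay 1.33 above si1 (SE 0.27, limma adjusted p = 0.0297). With si2 against siSCR it was -0.04 (95% interval -0.52 to 0.44). TKT lies at chr3:53224707-53256052 on the minus strand (GENCODE 29, GRCh38).

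Without siSCR 1, the TKT value with si1 was -1.34 (limma adjusted p = 0.0162). Without any other library the log2 value lay between -1.49 and -1.19 and the adjusted p between 0.0675 and 0.124, and with the replicate block it was 0.154. For si2 against si1, the call of TKT was lost without si1 1, si1 3, si2 1, si2 2 or si2 4, and that of GCLM without si2 1, si2 2 or si2 4. The adjusted p without a library reached at most 0.0936 for TKT, 0.0525 for GCLM and 0.0424 for PIR, which kept its call each time.

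TALDO1, transaldolase, ranged from 978 to 1324 (siSCR), 1031 to 1425 (si1) and 1112 to 1763 (si2). Its log2 difference was -0.02 with si1 (95% interval -0.49 to 0.45) and 0.20 with si2 (-0.23 to 0.63). PGD, which yields NADPH in the oxidative arm, ranged from 77.2 to 102 (siSCR), 82.7 to 115 (si1) and 71.0 to 97.3 (si2). Its log2 differences were 0.12 and -0.04.

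ME1, the cytosolic malic enzyme, makes NADPH outside the pentose phosphate pathway. It stood at 63.0, 63.0, 44.5 and 41.8 in siSCR, at 64.1, 180.4 and 99.2 in si1, and at 79.6, 88.3, 92.4 and 71.5 in si2. Every siRNA library lay above every control, with si1 1 only just above. The log2 difference was 0.99 with si1 (SE 0.36, limma adjusted p = 0.152) and 0.65 with si2 (SE 0.19, limma adjusted p = 0.0947), and without siSCR 1 it rose with si2 by 0.74 (limma adjusted p = 0.0298). Leaving out any other library left ME1 uncalled with si2.

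Counted over all branches, groups that did not overlap were found in both directions with each siRNA. With si1, 4 of the 36 tested members lay above all controls (11.1%, beside 10.8% of all genes) and 7 below (19.4%, beside 10.9%). With si2, 5 lay above (13.9%, beside 7.09%) and 1 below (2.78%, beside 5.5%). Without siSCR 1, 6 lay above and 9 below with si1 (16.7% and 25.0%, beside 19.4% and 21.4% of all genes), and 9 above and 3 below with si2 (25.0% and 8.33%, beside 14.8% and 14.6%). Between the siRNAs, 6 were higher with si2 (16.7%, beside 13.4%) and 4 lower (11.1%, beside 11.6%).

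Members of siSCR 1 departed from the other controls in both directions. Relative to the mean of siSCR 2 to 4, TXNRD2 stood at 0.41, PIR at 0.47, TXNRD1 at 0.53, NQO1 at 0.54, MGST1 at 0.55 and PRDX3 at 0.58 in siSCR 1. At the other end, OSGIN1 stood at 1.56, GPX4 at 1.34 and GSTK1 at 1.33. Replicate 1 was the lowest library in all 3 groups for NQO1, PRDX3 and PRDX6 (8.33% of 36 members, beside 6.03% of 10281 genes) and the highest for OSGIN1 and PRDX5 (5.56%, beside 5.98%). The part of the mitochondrial read share in these differences was not tested, apart from the fit with that share as a covariate.

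**Figure D4:**
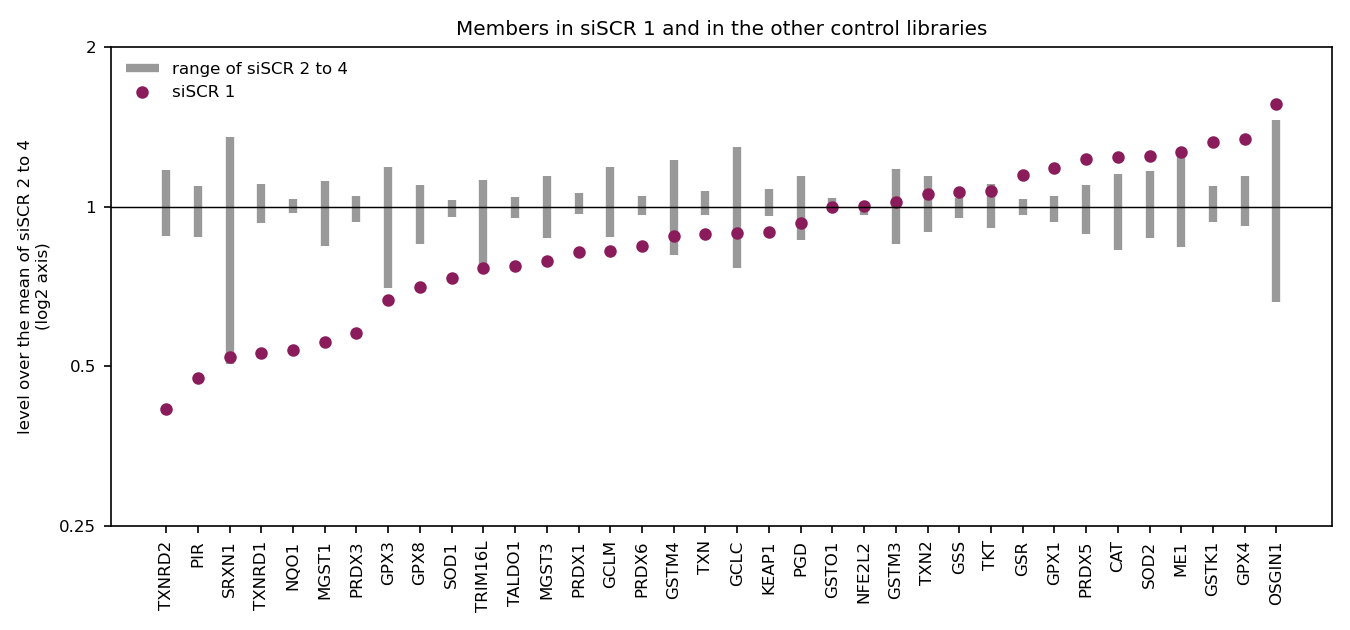
Level of 36 members in siSCR 1 (points) and range of siSCR 2 to 4 (bars), each over the mean of siSCR 2 to 4 (y axis, log2 scale), ordered by siSCR 1 (x axis). TXNRD2 (0.41), PIR (0.47), TXNRD1 (0.53) and NQO1 (0.54) lie below the other controls, and OSGIN1 (1.56) and GPX4 (1.34) above.

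Genes of the same pathways outside the members were taken from a list of 98 symbols, of which 97 were matched and GSTT1 was not. With si1, 0 of the 81 that could be tested were called, 25 at an unadjusted p under 0.05 (30.9%, beside 2516 of all 10517 tested genes, or 23.9%). With si2, 2 of 80 rose and 1 fell (2.50% and 1.25%, beside 1.93% and 1.19% of all genes). MAFF, a small MAF partner of NRF2, rose by 1.40 on the log2 scale (SE 0.32, limma adjusted p = 0.0443), and MSRB3, which repairs oxidised methionine, by 1.02 (SE 0.17, limma adjusted p = 0.0148). SELENOH, a nuclear selenoprotein with a thioredoxin-like fold, fell by 0.99 (SE 0.15, limma adjusted p = 0.0106). The call of MAFF was lost without any library but siSCR 1 (limma adjusted p 0.0744 to 0.128), that of MSRB3 without siSCR 2, siSCR 4 or si2 1 (up to 0.0547), while SELENOH kept its call without each library. With si1 the values of MSRB3 and SELENOH were 1.15 and -0.95, with limma adjusted p-values of 0.0564 and 0.0609.

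For si2 against si1, 3 of 79 listed genes were higher with si2 and 5 lower (3.80% and 6.33%, beside 3.71% and 3.02% of all genes). GGCT, which acts in the breakdown of glutathione, was higher by 2.01, SLC7A11, the cystine importer that feeds glutathione synthesis, by 1.46, and PRPS1, which takes ribose 5-phosphate onward to nucleotides, by 1.25. Lower with si2 were SESN1 (log2 difference -1.87), the aldo-keto reductase AKR1C1 (-1.16), TXNIP, an inhibitor of thioredoxin (-1.07), the ferritin light chain FTL (-0.82) and NNT, the mitochondrial transhydrogenase that makes NADPH (-0.81). The limma adjusted p-values of these 8 genes lay between 0.00576 and 0.0459. GGCT alone kept its call without each library in turn. Without siSCR 1, 10 of 79 listed genes rose and 5 fell with si1 (12.7% and 6.33%, beside 7.01% and 6.52% of all genes). With si2, 7 of 80 then rose and 3 fell (8.75% and 3.75%, beside 7.74% and 6.68%).

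Of the 39 members, the authors' deposited table called 1 higher (GSR) and 4 lower (GCLM, PIR, TKT and TXNRD1) with si1, at an adjusted p under 0.05. With si2 the authors' deposited table called GSTP1 higher and TXNRD1 lower. Over all 33080 genes the authors' deposited table called 485 higher and 565 lower with si1, and 373 and 244 with si2. Only 17626 of these genes had a read in some library, so this background is wider than the tested genes used above.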

How the data were processed

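RNA was sequenced from 769-P cells in 11 libraries. Per the submitters' processing notes, cutadapt, FastQC, STAR, HTSeq and DESeq2 were used with the build GRCh38; tool versions, settings and strandedness are not given in the sources used here. For each library the authors deposited log2 values, found on testing to be the log2 of the normalized count plus 1: with this undone, 100% of values lay within 0.01 of a whole number of reads. The authors also deposited a mean signal, a log2 fold change, and p-values raw and adjusted, used only where their table is named.

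Each comparison was fitted on its own libraries with limma 3.58.1 in R 4.3.3, with group as the only term, on log2(normalized count + 1) of genes that reached a normalized count of 10 in at least the number of libraries in the smaller group. Fold changes on this scale understate those of low genes. A gene was called at a two-sided Benjamini-Hochberg adjusted p under 0.05 over all tested genes. Scripts were tested on simulated data. Alternatives were upper-quartile rescaling, other filters (none, or 50) and pseudocounts (0.5 and 5), limma-trend, voom on the recovered reads, 1 fit of all 11 libraries, a replicate block, the mitochondrial read share as a covariate, and each library left out.

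The groups share replicate numbers in the sample titles. Deviations of same-numbered libraries from their group means correlated over genes at 0.106 to 0.407 in the 3 pairs of siSCR and si1, all above 0.1. The blocked value therefore stands beside those results where it changed a call. Libraries of unlike number also passed 0.1, namely siSCR 2 with si1 3 (0.112), siSCR 3 with si1 2 (0.126) and siSCR 4 with si1 3 (0.132). The value of 0.407 was that of number 1 alone, so this limit does not settle whether the numbers pair the libraries. For siSCR and si2 (-0.0350 to 0.175) and si1 and si2 (-0.00304 to 0.0994) the numbers were not taken to pair the libraries. The members and gene lists were chosen with earlier results of these data known. Every member is named, and called members, the target and the highest member of each branch without a call are given by library; called genes of the wider pathway list are named. Promoter windows are from RefSeq (GRCh38.p14), gene coordinates from GENCODE 29. Intervals of log2 differences are limma's 95% intervals, from the spread between libraries; the limit given for 0 reads covers counting error only.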

Additional observations from a re-analysis of the deposited data

Results flagged for a closer look

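NQO1 stood at 574 in siSCR 1, far below the 1043 to 1108 of the other 3 control libraries for the spread of that group. PRDX2 stood at 0.884 in si2 1, which is 1 read, against 0 in the other si2 libraries. These are 2 of 75 groups of 4 libraries examined, and chance flags about 1 in 20 such groups. The effects of the siRNAs differed from each other, by the direct test of si2 against si1 with limma, for GCLM (log2 difference 2.27), PIR (1.88) and TKT (1.33), each higher in 4 of 4 si2 libraries than in any si1 library.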

How the results depend on the processing

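With 3 or 4 libraries a group, the number of calls moved with the processing far more than the fold changes did. Against 181 genes called with si1 (83 higher, 98 lower), no filter gave 5, a minimum of 50 gave 567, a pseudocount of 5 gave 414, limma-trend 712, voom 582 (329 higher, 253 lower) and 1 fit of all libraries 1112; leaving out each library gave 0 to 1399. The upper-quartile scale gave 110 higher and 95 lower. Of the members, 3 were called with si1, 0 without a filter, and 0 to 5 with a library left out. Against 320 genes called with si2, no filter gave 108, limma-trend 482 and the mitochondrial share as a covariate 1343; leaving out each library gave 88 to 1496. Members called with si2 numbered 0, and 1 under a minimum of 50, limma-trend or voom, beside 417, 482 and 463 genes in all. With the mitochondrial share, 5 of 36 members were called (OSGIN1, GPX3 and ME1 higher, TXNRD1 and GPX8 lower), a share similar to the 1343 of 10249 genes. Leaving out each library gave 0 to 5 members. Against 704 genes for si2 against si1 (388 higher, 316 lower), no filter gave 230, limma-trend 1064, voom 1172 and the mitochondrial share 167 (124 higher, 43 lower); leaving out each library gave 120 to 803. Members called there numbered 3, 1 with the mitochondrial share (GCLM), and 1 to 3 with a library left out. Without a filter more genes entered the adjustment; for the other settings the cause was not tested. Of 1858 values of single genes under the alternatives, 1797 kept their side of the threshold, 41 lost and 20 gained a call. None of the 102 values of called genes changed sign, while 75 values of uncalled genes did. GPX2, PRDX2 and GSTP1, with 0, 1 and 106 reads over all libraries, were too low for the test.

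With the replicate block, 0 genes and 0 members were called with si1, 175 genes and 0 members with si2, and 6 genes and 0 members for si2 against si1. Neither siSCR 4 nor si2 4 has an si1 library of its number, so neither adds to a blocked difference from si1. The blocked log2 value of GCLM with si1, -2.24, is therefore the same as without siSCR 4. How far the lost calls come from that lost library or from pairing was not tested. Of the siSCR and si1 pairs, 2 of 3 libraries correlated best with their own number, of the siSCR and si2 pairs 2 of 4, and of the si1 and si2 pairs 1 of 3; this is a hint from the data, not the design.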

Other observations

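Within each library, the ratio of the normalized counts of GCLM to GCLC, the modifier and the catalytic subunit of the same ligase, was 4.95 to 10.6 (siSCR), 0.400 to 2.14 (si1) and 6.67 to 9.90 (si2). The ratio of TKT to TALDO1, which act in the same arm of the pentose phosphate pathway, was 0.862 to 1.32 (siSCR), 0.359 to 0.465 (si1) and 0.456 to 1.35 (si2), where si2 3 was the lowest. The ratio of TXN to TXNRD1 was 0.855 to 1.48 (siSCR), 1.82 to 2.28 (si1) and 1.66 to 2.00 (si2), so that all siRNA libraries lay above all controls. The ratio of NFE2L2 to KEAP1 was 1.85 to 2.22 (siSCR), 2.47 to 3.03 (si1) and 1.71 to 2.89 (si2). These ratios are not corrected for gene length and are set beside each other only between libraries. They were chosen after the values were seen and were not tested.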
